A study of Mus musculus with 12 samples.

Results

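Tissue identity was described in mice that lack Vaultrc5, the gene of a mouse vault RNA, by setting 3 brain libraries of the knockout against 3 liver libraries of the knockout. These are 6 of the 12 libraries of the study, chosen by their tissue and genotype labels. Both groups carry the genotype vaultrc5-/- and come from male mice of 7 to 9 weeks; no other allele or treatment is named, and the labels do not say how the allele was made or whether brain and liver of 1 number come from 1 animal. The other 6 libraries are brain and liver of wild-type males of the same age, 3 of each, whose titles carry the tag flx. They enter only where the knockout contrast is set beside the same contrast in the wild type. Ribosomal RNA was depleted and total RNA was sequenced, so transcripts without a poly(A) tail are included. The expected counts of a library summed to 14844971, 17206540 and 16679963 in the knockout brain and to 25989866, 25070499 and 23247449 in the knockout liver.

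The liver and the brain hold some of the most distinct transcriptomes of the body. Hepatocytes, the main cells of the liver, secrete the plasma proteins and the bile acids, dispose of ammonia through the urea cycle and release glucose between meals, under transcription factors such as HNF4A. Neurons rely on vesicle release, ligand-gated receptors and voltage-gated channels, on tubulin-based transport along the axon and on neural programmes of splicing. Vault RNAs are short transcripts of RNA polymerase III that sit in the vault, a large hollow particle of the proteins encoded by Mvp, Tep1 and Parp4. Each bulk value below is an average over all the cells of a sample, so fewer cells of a type and less RNA per cell cannot be told apart.

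The labels were checked first. Vaultrc5 had 0 counts in all 6 knockout libraries, where 3 counts lie at a mean of 0.139 CPM in brain and 0.165 CPM in liver (CPM is the counts-per-million scale, after scaling the libraries to each other). In the wild type it had 33, 39 and 48 counts in the 3 livers and 4, 1 and 4 counts in the 3 brains. The exact two-sided permutation test of 3 against 3 gave p = 0.1 in either tissue, the smallest value that design allows. Albumin, Alb, the main plasma protein, stood at 52233, 40170.0 and 71976 CPM in the knockout livers and at 0, 0.174 and 0.0906 CPM in the knockout brains. Snap25, the neuronal membrane fusion protein of the synapse, stood at 1520.3, 1591 and 1431 CPM in the brains and had no count in any liver. No library overlapped with the other tissue for either gene.

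Several libraries held some transcripts at much higher levels than the others of their group, as the plot of marker lists shows, and these lists were chosen after the values were seen. Brain replicate 3 held 14 genes of pancreatic digestive enzymes at a summed 6857 CPM, against 0.932 and 0.912 CPM in brain replicates 1 and 2 and 0.617 to 2.67 CPM in the livers. The 57 genes that were more than 5 times higher in brain replicate 3 than in either other brain took 1.92% of its counts, and 8 of them were tested. By the same measure 32 genes took 2.68% of the counts of liver replicate 2, among them the urinary protein genes Mup15, Mup17 and Mup9, and 25 of these were tested and 15 called. Genes of the cerebellum summed to 1931 and 775 CPM in brain replicates 1 and 3 and to 25.7 CPM in replicate 2. Genes of the choroid plexus, the tissue that makes cerebrospinal fluid, summed to 64.9 CPM in brain replicate 1 and to 5.64 and 7.43 CPM in replicates 2 and 3. The livers summed to more, 93.1 to 115 CPM, and of 5 tested members 3 were higher in brain and 1 in liver. Among the livers, acute-phase genes summed to 14408 CPM in replicate 2 against 3575 and 3688 CPM, and genes of the clock and of fasting to 1925 CPM in replicate 3 against 465 and 481 CPM. The largest part of that last sum was Lpin1, at 890.4 CPM in replicate 3 against 92.9 and 145 CPM. Igfbp1 (225 CPM), Rgs16 (187), Noct (143), Dbp (124), Per1 (94.6) and Per2 (63.3) were also highest in liver replicate 3. Arntl and Nr1d1 of the same list were not raised there (3.81 and 195 CPM, against 19.4 and 233 CPM in replicate 1). Without any 1 of the 6 libraries, 7986 to 8174 genes were called higher in brain and 6266 to 6614 higher in liver, against 8178 and 6611 with all of them. The part of these transcripts in any other result was not tested. Leaving out 1 library changed the calls of a list by at most 1 member in a direction, for example to 23 of 24 in drug metabolism (without liver replicate 1 or 3), 21 of 22 in fatty acid oxidation (without liver replicate 3), 20 of 20 in cholesterol synthesis (without liver replicate 1) and 29 of 29 in neural transcription factors (without brain replicate 1).

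**Figure D1:**
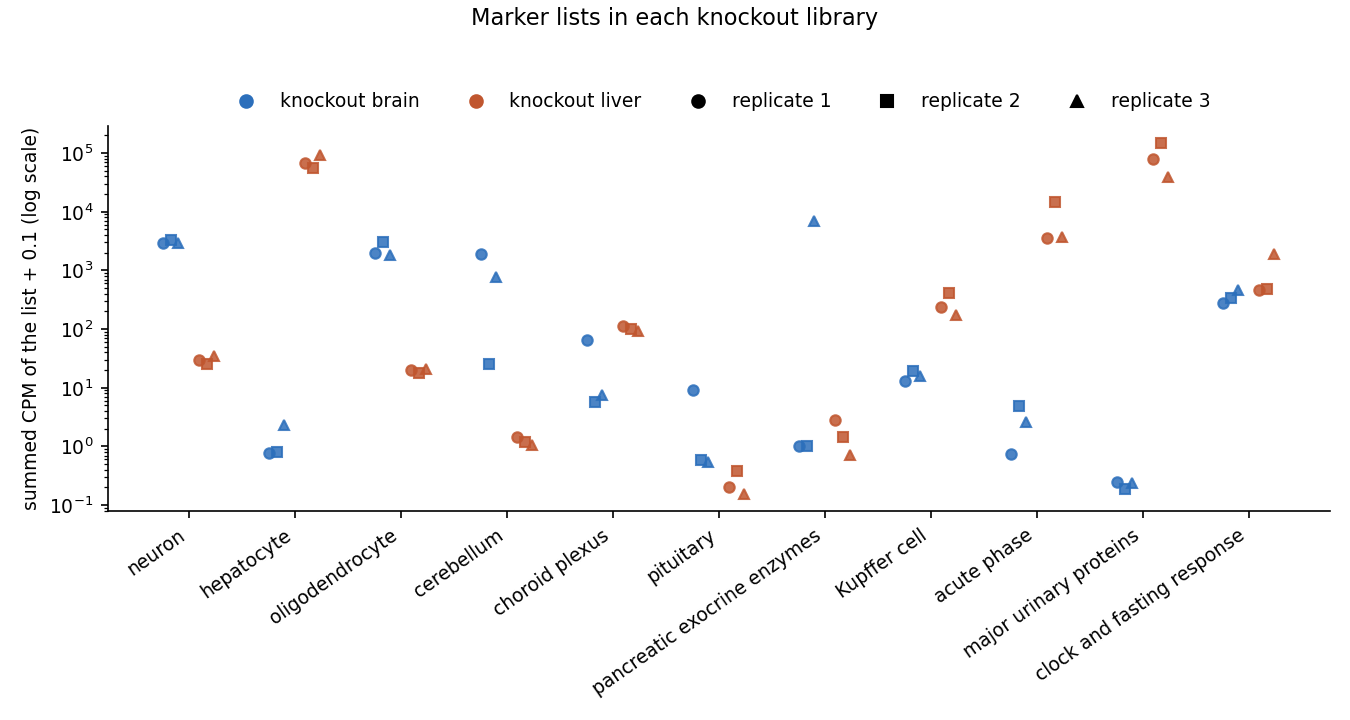
Summed level of marker lists in each of the 6 knockout libraries, in CPM with 0.1 added, on a log axis; blue points are brain, orange points liver, and the symbol gives the replicate. Neuron and hepatocyte markers separate the tissues in every library, while pancreatic enzymes are high in brain replicate 3 only and cerebellar genes are low in brain replicate 2.

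Promoters of a few leading genes show the letters that such programmes are often read from. They were taken from RefSeq on the build GRCm38.p6 as the 250 bases before the annotated start, all read 5′ to 3′ toward the gene, for 3 liver and 3 neural genes picked after the matches were seen from those named by level in a list whose promoter held a searched motif. The liver set was chosen because these genes make plasma protein, carry fatty acids and release glucose, and it is shown with the motif GTTAAT and the TATA box TATAAAA in capitals. Albumin lies at chr5:90460620-90460869 on the plus strand, with that motif 32 bases before the start; Fabp1 lies at chr6:71199629-71199878 on the plus strand, with that motif 107 bases and the TATA box 30 bases before it; G6pc lies at chr11:101367466-101367715 on the plus strand, with that motif 221 bases and the TATA box 29 bases before it.
Alb: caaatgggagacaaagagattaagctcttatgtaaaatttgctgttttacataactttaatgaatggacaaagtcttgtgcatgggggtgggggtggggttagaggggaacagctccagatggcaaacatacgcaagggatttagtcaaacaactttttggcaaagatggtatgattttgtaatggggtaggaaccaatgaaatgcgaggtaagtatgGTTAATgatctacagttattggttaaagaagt
Fabp1: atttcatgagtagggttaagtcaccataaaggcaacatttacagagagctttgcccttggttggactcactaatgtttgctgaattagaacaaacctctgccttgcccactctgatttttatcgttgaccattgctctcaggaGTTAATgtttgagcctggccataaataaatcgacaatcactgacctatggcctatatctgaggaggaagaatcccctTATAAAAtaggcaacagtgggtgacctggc
G6pc: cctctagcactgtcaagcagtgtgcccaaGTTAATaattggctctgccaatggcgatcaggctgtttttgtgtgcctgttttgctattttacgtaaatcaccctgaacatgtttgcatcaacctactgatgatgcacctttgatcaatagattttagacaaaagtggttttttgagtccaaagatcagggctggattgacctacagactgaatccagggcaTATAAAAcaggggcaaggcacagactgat
The neural set holds a tubulin gene and a pair of long noncoding RNAs, with the CRE TGACGTCA, the TATA box or the C/EBP site TTGCGCAA in capitals. Tubb2a lies at chr13:34078009-34078258 on the minus strand, with the CRE 59 bases and the TATA box 29 bases before the start; Meg3 lies at chr12:109540746-109540995 on the plus strand, with the CRE 57 bases before it; Snhg11 lies at chr2:158375463-158375712 on the plus strand, with the C/EBP site 102 bases before it.
Tubb2a: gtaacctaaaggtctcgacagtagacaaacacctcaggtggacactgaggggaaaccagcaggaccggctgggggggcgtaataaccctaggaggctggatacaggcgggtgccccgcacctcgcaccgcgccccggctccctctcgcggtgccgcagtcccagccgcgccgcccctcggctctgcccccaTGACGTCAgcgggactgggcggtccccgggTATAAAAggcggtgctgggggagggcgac
Meg3: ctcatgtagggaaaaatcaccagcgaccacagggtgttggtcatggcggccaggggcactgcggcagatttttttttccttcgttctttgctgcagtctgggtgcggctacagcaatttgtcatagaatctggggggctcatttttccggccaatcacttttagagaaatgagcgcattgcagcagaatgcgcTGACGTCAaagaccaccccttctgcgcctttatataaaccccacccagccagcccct
Snhg11: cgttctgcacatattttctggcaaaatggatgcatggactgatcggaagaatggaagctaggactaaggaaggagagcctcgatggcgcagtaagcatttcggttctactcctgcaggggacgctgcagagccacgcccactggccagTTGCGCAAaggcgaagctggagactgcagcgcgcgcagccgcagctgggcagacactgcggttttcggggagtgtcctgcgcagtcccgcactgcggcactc

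Distances are from the RefSeq start. For the printed windows of Alb, Tubb2a and Meg3 the first 40 bases after that start were not found in a GENCODE transcript of the gene, so the transcript may start elsewhere, and Meg3 has another RefSeq start, whose window held none of the motifs. Both strands of 32851 promoters were searched. Among named genes, GTTAAT also lay before Hnf4a, Pck1 and Slco1b2 of the liver lists, before Cplx2, Mef2c and Kif5c, which are higher in brain, and before Mbnl1, Psmb5 and Rps15a. TATAAAA also lay before Cebpa, Cyp2e1, Slco1b2, Mef2c, Kif5c, Scn2a and Mbnl1, and the CRE before Kif5c and Stxbp3. The motif GTTAAT was in 6.43% of all promoters, in 9 of 36 promoters of the plasma protein list and in 4 of 15 of the list of glucose production. The other liver lists held it in 4 of 26 promoters (liver transcription factors), 4 of 26 (drug metabolism), 2 of 17 (fatty acid oxidation), 2 of 22 (urea cycle and amino acids), 1 of 16 (bile acids) and 1 of 18 (cholesterol). In the neural lists it was in 5 of 44 promoters of splicing regulators, 4 of 36 of neural transcription factors, 2 of 24 of channels, 1 of 21 of the cytoskeleton, 1 of 38 of synaptic vesicle genes and 0 of 28 of receptors. The CRE was in 1.55% of all promoters, in 2 of 38 of the synaptic vesicle list, 2 of 21 of the cytoskeleton, 3 of 44 of splicing regulators, 2 of 17 of long noncoding RNAs, 1 of 36 of neural transcription factors, 0 of 28 of receptors and 0 of 24 of channels. TATAAAA was in 4.98% of all promoters. It was in 5 of 26 promoters of drug metabolism, 4 of 26 of liver transcription factors and 3 of 36 of plasma proteins. The lists of glucose production (15 promoters), bile acids (16), fatty acid oxidation (17) and the urea cycle (22) held 1 each, and cholesterol 0 of 18. In the neural lists it was in 2 of 21 of the cytoskeleton, and 1 each of channels (24), neural transcription factors (36) and splicing regulators (44). It was in 0 of 38 of synaptic vesicle genes and 0 of 28 of receptors. The HNF4 site CAAAGTCCA was in 0.384% of all promoters and in 2 of 26 promoters of drug-metabolising genes and 1 of 16 of the bile acid list, and in none of the other lists. A match describes letters only, and a window without one says nothing about the factor.

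Most of the transcriptome differed between the tissues without Vaultrc5. Of 18785 genes tested, 8178 (43.5%) were higher in brain and 6611 (35.2%) higher in liver at an adjusted p under 0.05 (edgeR quasi-likelihood test, Benjamini-Hochberg), and 3996 were not called. The libraries of the groups did not overlap for 14684 of the 14789 calls. The p-values measure the spread between these libraries, because the labels do not say that replicates are separate animals. At a log2 difference of at least 5 the calls numbered 2848 in brain and 1105 in liver, and at a difference of at least 10 they numbered 737 and 394. No liver had a count for 1284 of the brain calls, and no brain for 319 of the liver calls. All log2 values below are knockout brain minus knockout liver, so negative values mean higher in liver.

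The scaling between the libraries matters for small differences. The 10 genes with the most counts took 19.3% to 19.98% of a liver library and 10.5% to 11.5% of a brain library, and the scaling used here (TMM) sets the median log2 difference of all genes at 0.21. Scaling by library totals moved that median by 0.88 to 1.09, and the share of calls higher in brain from 55.3% to 75.1%. By library totals 62.1% of all genes tested were higher in brain and 20.6% higher in liver. These are the shares to set beside the counts of a list by that scaling. Lists of smaller differences are therefore given with both scalings.

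The next genes have the smallest p-values among those whose lower group held a mean of at least 3 counts. Kif5c, a kinesin motor of axonal transport, stood at 679.9, 735 and 674 CPM in the brains and at 0.262, 0.225 and 0.224 CPM in the livers, a log2 difference of 11.48 ± 0.18 (SE, edgeR adjusted p = 1.1e-07). Scn2a, a neuronal sodium channel, stood at 496, 445 and 457 CPM in brain and 0.262, 0.225 and 0.224 CPM in liver (10.90 ± 0.17). Both were tight within either tissue. On the liver side, 1300017J02Rik stood at 458, 436 and 453 CPM in the livers and at 0.196, 0.13 and 0.181 CPM in the brains (-11.33 ± 0.18). Sec14l4 stood at 206, 184 and 224 CPM in liver and 0.147, 0.13 and 0.181 CPM in brain (-10.33 ± 0.19). Stab2, a scavenger receptor of the endothelium that lines the liver sinusoids, stood at 167, 144 and 158 CPM in liver and 0.441, 0.347 and 0.408 CPM in brain (-8.60 ± 0.16).

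The protein-coding genes with the most reads differed between the tissues. In brain they were the mitochondrial genes mt-Co1, mt-Nd4, mt-Nd1 and mt-Cytb and the astrocyte glutamate transporter Slc1a2, which stood at 2457, 3478 and 3078 CPM in brain and at 318, 331 and 317 CPM in liver (3.22 ± 0.18). In liver they were Alb, mt-Co1, Apob and the major urinary protein genes Mup7 and Mup22. Apob, the structural protein of very low density lipoprotein, stood at 20875, 21155 and 18422 CPM in the livers and at 0.049, 0 and 0 CPM in the brains, a ratio of 1.32e+06 that rests on 1 brain read, with a counting interval from 2.37e+05 to 5.21e+07. Mup7, which encodes a pheromone carrier, stood at 21131, 33785 and 5836 CPM in the livers and had no brain count, so it was at least 1.47e+05-fold higher in liver, against 3 counts per library. The urinary protein genes are near-identical copies, and their counts were partly fractional, so the split between them is uncertain.

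**Figure D2:**
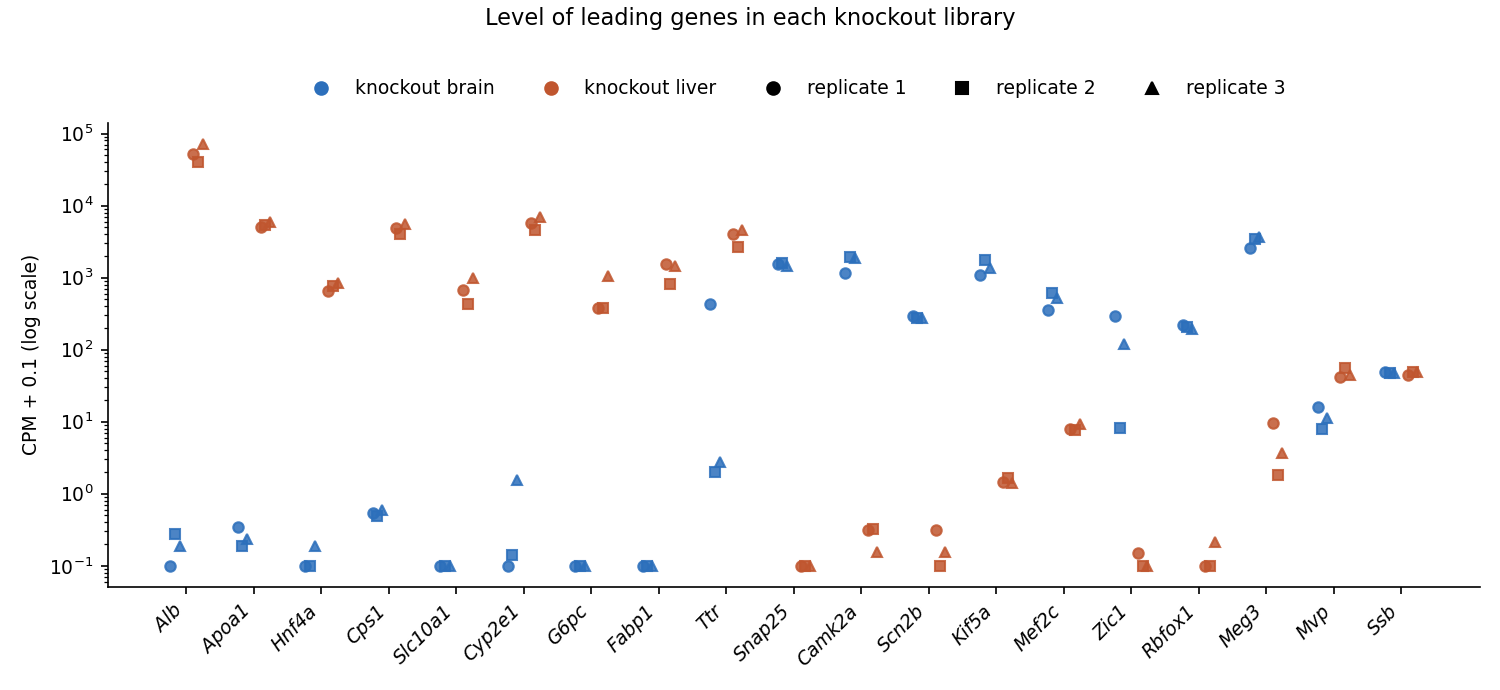
Level of 19 genes named in the text in each of the 6 knockout libraries, in CPM with 0.1 added, on a log axis; blue points are brain, orange points liver, and the symbol gives the replicate. Genes without a count sit at 0.1; Ttr and Zic1 show 1 brain library far from the other 2, and Ssb is level across the tissues.

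Plasma proteins are secreted products of the hepatocyte. Of 41 members tested, 40 were higher in liver, against 35.2% of all genes, and none was higher in brain. The median log2 difference was -13.86, or -13.47 with the 6 members that had no brain count set at their bound, against 0.21 for all genes. Apoa1, the main protein of high density lipoprotein, stood at 5119, 5352 and 5953 CPM in the livers and 0.245, 0.0868 and 0.136 CPM in the brains (-15.07 ± 0.37). Apoa2, another protein of that particle, differed by -13.93 ± 0.36. Trf, the iron carrier transferrin, which oligodendrocytes also make, stood at 10085, 14542 and 9441 CPM in liver and still at 103, 108 and 74.9 CPM in brain (-6.89 ± 0.32).

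Transthyretin, Ttr, the thyroxine carrier that the choroid plexus makes as well as the liver, was the member not called. It stood at 3992, 2692 and 4519 CPM in the livers and at 434, 1.91 and 2.63 CPM in the brains. Brain replicate 1 lay far above the other brains and below every liver, and the log2 difference was -4.67 ± 2.06 (edgeR adjusted p = 0.077). With the replicate number as a block, Ttr was called higher in liver. Without brain replicate 1, the brain library that also led the other brains in the choroid plexus list, the difference was -10.66 (edgeR adjusted p = 5.4e-06). All 41 members were then called higher in liver.

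The transcription factors of the liver were all higher there. All 22 listed factors tested were called, with a median of -8.53. Hnf4a, the nuclear receptor that holds hepatocyte identity, stood at 652, 770.1 and 843 CPM in the livers and at 0, 0 and 0.0906 CPM in the brains, a ratio of 24727 from 2 brain reads with a counting interval from 6845 to 204180. Mlxipl, the glucose-responsive factor ChREBP, differed by -8.74 ± 0.34. Cebpa differed by -6.37 ± 0.27 and the retinoid X receptor Rxra by -4.94 ± 0.18, with 15.7 to 20.9 CPM of Rxra in brain. The smallest difference of the list was -3.14.

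The metabolic work of the liver followed the same direction. All 30 genes of the urea cycle and amino acid breakdown were higher in liver, with a median of -11.08. Cps1, which fixes ammonia at the entry to the urea cycle, stood at 4821, 4034 and 5632 CPM in the livers and at 0.441, 0.391 and 0.498 CPM in the brains (-13.39 ± 0.30). Ass1, which joins citrulline and aspartate, kept 8.88 to 12.8 CPM in brain and differed by -7.94 ± 0.32. Gnmt, a glycine methyltransferase, differed by -10.40 ± 0.64. Hpd, an enzyme of tyrosine breakdown, stood at 1503, 1079 and 1761 CPM in the livers with no brain count, at least 10507-fold higher in liver.

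Bile acid synthesis and transport gave 17 of 17 tested members higher in liver, with a median of -11.46. Slc10a1, which takes bile salts back from the blood, stood at 667, 436 and 981 CPM in the livers with no brain count, at least 5042-fold higher. The uptake carrier Slco1b2 differed by -12.96 ± 0.32 and the bile acid CoA ligase Slc27a5 by -11.46 ± 0.42. Cyp7b1, an oxysterol hydroxylase, varied most among the livers, at 451, 700.0 and 102 CPM, and stood at 5.00, 7.12 and 6.03 CPM in the brains (-6.11 ± 0.73). Liver replicate 3 held the lowest Cyp7b1 value.

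Drug metabolism by cytochrome P450 and conjugating enzymes was a liver list too, with 24 of 24 members higher there and a median of -13.73, or -11.76 with the 11 members without a brain count at their bound. Cyp2e1, which oxidises ethanol, stood at 5659, 4558 and 6839 CPM in the livers and at 0, 0.0434 and 1.45 CPM in the brains (-13.45 ± 1.23). The highest brain value was in replicate 3. The glutathione transferases Gstp1 and Gstm1 kept 39.7 to 63.8 CPM in brain and differed by -5.82 ± 0.29 and -4.74 ± 0.25. Adh1, an alcohol dehydrogenase, differed by -11.75 ± 0.67.

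In a short list of P450 genes known from brain, 2 of 5 tested members were higher in brain and 1 higher in liver, shares near or below those of all genes (43.5% and 35.2%). By library totals 2 were higher in brain and 0 in liver, against 62.1% and 20.6% of all genes. The median was then 1.11 instead of 0.24, against 1.09 for all genes. Without liver replicate 1 the median was 1.70, without replicate 2 it was -0.25 and without replicate 3 it was -0.12. Cyp46a1, which turns cholesterol into its exportable brain form, stood at 64.5, 91.2 and 87.3 CPM in brain and 1.31, 0.844 and 2.97 CPM in liver (5.57 ± 0.40). Cyp4x1 stood at 10.3, 11.8 and 12.2 CPM in brain and had 3 liver reads in all, a ratio of 209 with a counting interval from 71.4 to 1012. Cyp26b1, which degrades retinoic acid, stood at 22.5, 17.996 and 15.6 CPM in liver and 10.3, 3.73 and 6.84 CPM in brain (-1.42 ± 0.35, edgeR adjusted p = 0.0065). By library totals Cyp26b1 was not called (-0.54), and in the wild type the difference was -0.18 and not called. Cyp2j9 (-0.47) and Cyp2s1 were not called in the knockout.

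Sugar and lipid metabolism went the same way. All 14 genes of glucose production and storage were higher in liver, with a median of -9.36. G6pc, the last step of glucose release, stood at 373, 373 and 1065 CPM in the livers with no brain count, at least 4384-fold higher, and its highest value was in liver replicate 3. Pck1 differed by -13.02 ± 1.10 and Fbp1 by -11.67 ± 0.32. All 22 genes of fatty acid oxidation and ketogenesis were higher in liver, with a median of -4.50. Fabp1, the fatty acid carrier whose promoter is printed above, stood at 1533, 804 and 1428 CPM in the livers with no brain count, at least 9112-fold higher. Slc27a2, a fatty acid transport protein, stood at 1391, 1213 and 1387 CPM in the livers and 1.47, 2.34 and 1.81 CPM in the brains (-9.46 ± 0.25).

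Cholesterol synthesis, which the brain runs for itself, showed smaller differences. Of 20 members, 19 were higher in liver, with a median of -2.15, and by library totals 15 were, with a median of -1.27. Sc5d, a late desaturase of the pathway, stood at 637, 630.5 and 1028 CPM in the livers and 54.3, 51.8 and 48.1 CPM in the brains (-3.90 ± 0.23). The libraries of the tissues did not overlap for it. The differences of Idi1 and Hmgcs1 were -3.13 ± 0.19 and -1.77 ± 0.21.

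**Figure D3:**
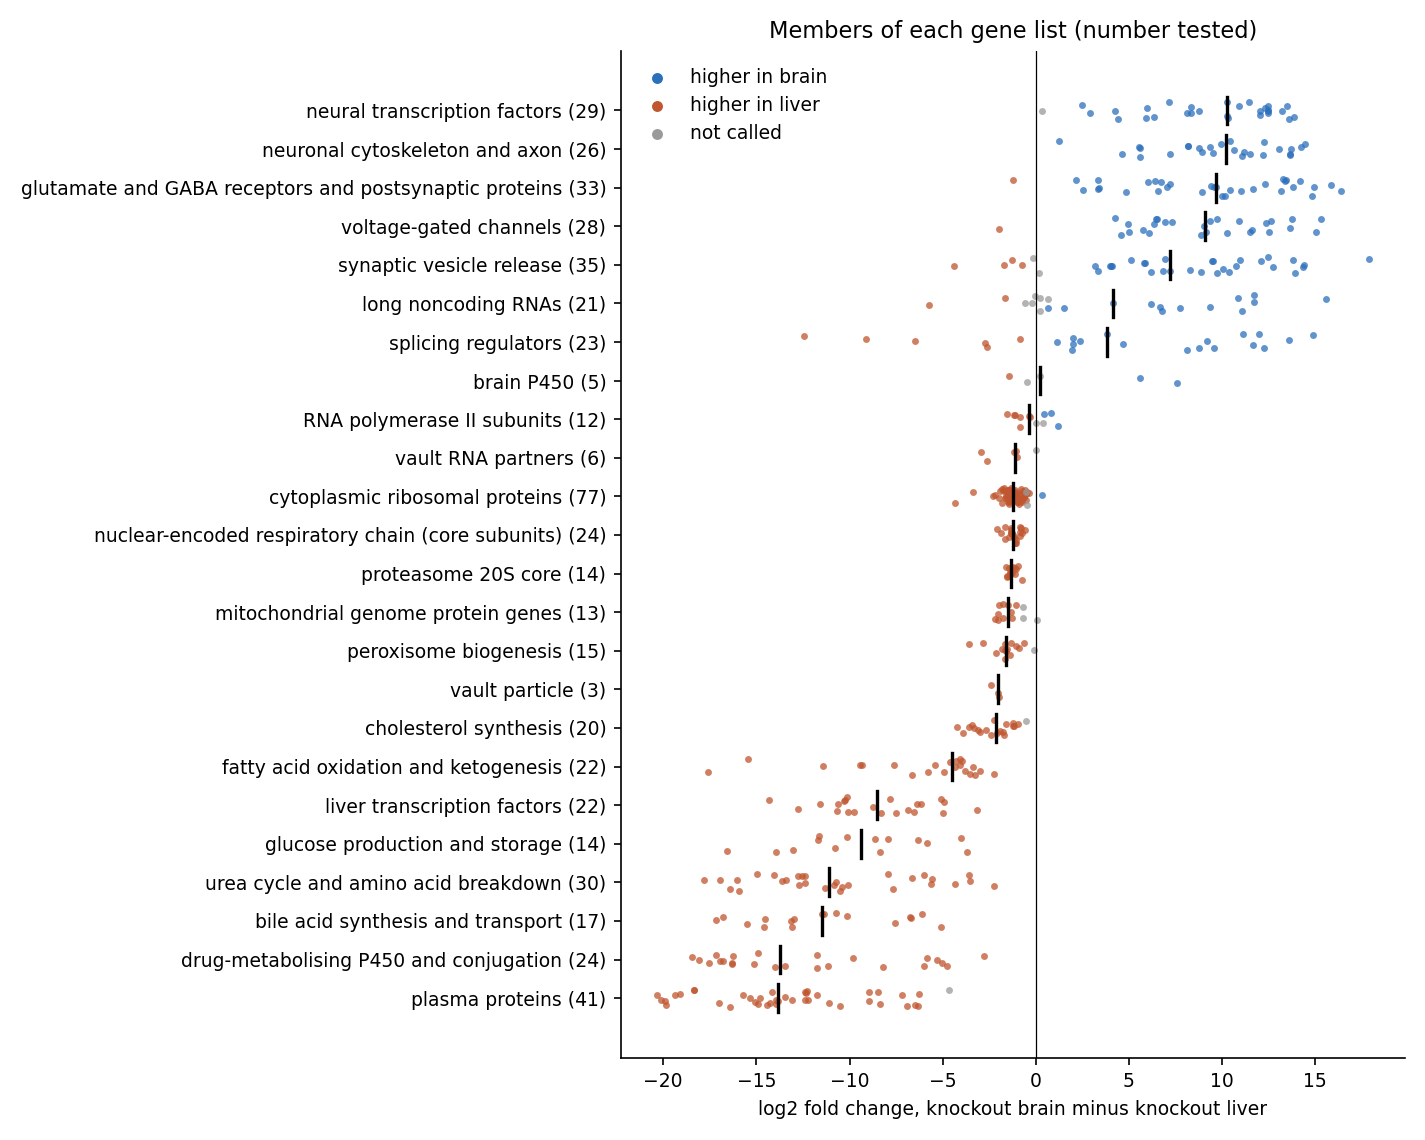
Log2 difference, knockout brain minus knockout liver, of every tested member of 24 gene lists; each point is a gene coloured by its call, black bars are medians, and the number tested follows each name. Plasma proteins and the metabolic lists of the liver lie below 0, the neural lists lie mostly above 0 with the opposite calls in orange, and the lists of general machinery lie closer to 0.

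Genes of synaptic vesicle release were higher in brain for 29 of 35 members, against 43.5% of all genes, with a median of 7.21. Snap25 (values above) was at least 9197-fold higher in brain. Vamp2, the vesicle partner of Snap25, stood at 556, 698 and 612 CPM in the brains and 36.7, 32.1 and 41.7 CPM in the livers (4.08 ± 0.16). The complexins Cplx1 and Cplx2, clamps of vesicle fusion, stood at 308 to 388 and at 779 to 847 CPM in brain. Cplx2 differed by 8.28 ± 0.23, and Cplx1 had 3 liver reads in all, a ratio of 6279 with a counting interval from 2149 to 30447.

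The opposite calls in that list fell on 4 members known from general secretion rather than from synapses. Snap23, the widely expressed relative of Snap25, stood at 8.63, 9.25 and 10.3 CPM in brain and 30.5, 31.8 and 28.5 CPM in liver (-1.69 ± 0.12). Vamp8 stood at 4.02, 1.95 and 3.85 CPM in brain and 67.6, 67.7 and 67.3 CPM in liver (-4.37 ± 0.25). Stxbp3 (-1.30 ± 0.14) and Stxbp2 (-0.74 ± 0.09), syntaxin-binding proteins, were also higher in liver, although Stxbp2 was not called by library totals (0.14). Stx4a and Vamp3, of general membrane fusion, were not called (-0.15 ± 0.12 and 0.17 ± 0.15).

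Receptors for glutamate and GABA with their postsynaptic proteins were higher in brain for 32 of 33 tested members, with a median of 9.65, or 8.92 with the 9 members without a liver count at their bound. Camk2a, the kinase of synaptic plasticity, stood at 1174, 1941 and 1847 CPM in the brains and 0.209, 0.225 and 0.0561 CPM in the livers (13.24 ± 0.44). Shank1, a postsynaptic scaffold, stood at 803, 1127 and 1200.1 CPM in the brains and below 1 CPM in every liver (10.43 ± 0.29). Nrgn, a calmodulin-binding postsynaptic protein, differed by 8.92 ± 0.37, and the GABA-B receptor subunit Gabbr1 by 6.39 ± 0.12. For Camk2a, Shank1 and Nrgn the lowest brain value was in replicate 1. Gphn, the scaffold of inhibitory synapses that also makes molybdenum cofactor, was the member higher in liver, at 128, 106 and 117 CPM against 54.7, 49.2 and 49.0 CPM in brain (-1.20 ± 0.11). The cerebellar GABA receptor gene Gabra6 was not tested, since brain replicate 2 held 0.0434 CPM of it against 159 and 56.1 CPM in replicates 1 and 3.

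Voltage-gated channels were higher in brain for 27 of 28 members, with a median of 9.08. The sodium channel subunit Scn2b stood at 289.9, 273 and 271 CPM in the brains and had 5 liver reads in all, a ratio of 3039 with a counting interval from 1302 to 9361. Kcnq1, an epithelial and cardiac potassium channel, was the member higher in liver, at 3.40, 2.53 and 1.68 CPM against 0.441, 0.434 and 1.04 CPM (-1.98 ± 0.45), and was not called by library totals (-1.10).

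The neuronal cytoskeleton was higher in brain for all 26 members, with a median of 10.19. Kif5a stood at 1091, 1736 and 1339.9 CPM in the brains and 1.36, 1.57 and 1.29 CPM in the livers (9.94 ± 0.29). The tubulins Tubb4a and Tuba1a differed by 9.35 ± 0.25 and 5.53 ± 0.12. Tubb2a, whose promoter is printed above, stood at 123, 163 and 160.4 CPM in brain and still at 75.01, 65.9 and 49.3 CPM in liver (1.23 ± 0.19), the smallest difference of the list. Counts of Tuba1a and Tubb2a were fractional in all 12 libraries.

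Neural transcription factors were higher in brain for 28 of 29 members, with a median of 10.25, or 6.35 with the 16 members that had no liver count at their bound. Mef2c stood at 356, 618 and 527 CPM in the brains and 7.69, 7.48 and 9.19 CPM in the livers (5.94 ± 0.26). Neurod2, a factor of cortical projection neurons, stood at 81.9, 63.9 and 80.7 CPM in the brains with no liver count, at least 459-fold higher. Zic1 and Neurod1, which granule neurons of the cerebellum express strongly, are themselves members of the cerebellar list above. Zic1 stood at 291, 7.99 and 121 CPM and Neurod1 at 118, 7.12 and 53.5 CPM in brain replicates 1 to 3. Zic1 had 1 liver read in all and Neurod1 none, and Neurod1 was not called when genes of low count were kept (edgeR adjusted p = 0.090). Lhx6, a factor of inhibitory interneurons, was not called, at 5.30, 10.4 and 8.11 CPM in brain and 7.12, 6.19 and 5.38 CPM in liver (0.35 ± 0.26).

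Of 23 tested regulators of splicing, 17 were higher in brain and 6 higher in liver, against 43.5% and 35.2% of all genes, with a median of 3.84. By library totals the counts were 17 and 5 and the median 4.72. Rbfox3, the nuclear neuronal marker NeuN, stood at 241, 199.5 and 238 CPM in brain and 0.942, 0.675 and 0.841 CPM in liver (8.09 ± 0.18). Celf4 differed by 8.73 ± 0.29, and Rbfox1 stood at 193 to 217 CPM in the brains with 2 liver reads in all, a ratio of 5617 with a counting interval from 1555 to 46379. On the liver side, A1cf, the cofactor of apolipoprotein B RNA editing, stood at 343, 232 and 279 CPM in the livers with 3 brain reads in all, a ratio of 6215 with a counting interval from 2127 to 30138. The epithelial regulators Esrp2 and Rbm47 differed by -9.10 ± 0.53 and -6.49 ± 0.36. Ptbp1, the repressor that neurons lose, stood at 128, 131 and 134 CPM in liver and 19.7, 19.8 and 23.2 CPM in brain (-2.65 ± 0.11), and its relative Ptbp3 differed by -2.70 ± 0.13. Mbnl1 was higher in liver by the scaling used here (-0.87 ± 0.15) and level by library totals (0.01).

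Paralog pairs show the exchange of isozymes between the tissues most directly. Of 25 pairs named in the order liver member and brain member, 18 had opposite calls in that order, and 16 had them by library totals. Pyruvate kinase is an example: Pklr stood at 319.9, 171 and 521 CPM in the livers with 1 brain read, while Pkm stood at 479, 486 and 476 CPM in the brains and at 21.8, 24.2 and 17.6 CPM in the livers (4.50 ± 0.16). Per kilobase of exon, Pkm made up 99.995% of the pair in brain and 3.91% in liver.

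Further pairs had wide gaps of the same kind. For the glucose carriers, Slc2a2 differed by -10.78 ± 0.55 and Slc2a3 by 5.92 ± 0.26. The acyl-CoA ligases Acsl1 and Acsl6 differed by -5.08 ± 0.23 and 9.51 ± 0.23. Fabp7, the brain partner of Fabp1, stood at 10.6, 6.08 and 10.2 CPM in brain and 1.26, 2.36 and 0.729 CPM in liver (2.63 ± 0.43), and the pair Snap23 and Snap25 is given above.

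In 6 pairs (5 by library totals) a member went against the order. Among them, the phosphofructokinase Pfkl (1.34 ± 0.10) and the tubulin Tubb2b (8.43 ± 0.36), listed as liver members, were higher in brain along with their partners Pfkp and Tubb3. The listed brain members Hmgcs1 (-1.77 ± 0.21), Acaca (-1.70 ± 0.34) and Fads6 (-2.48 ± 0.27) were higher in liver, as were Acacb and Fads2, the partners of Acaca and Fads6. By library totals Acaca was not called (-0.84). In the pair left, Mat1a, the methionine adenosyltransferase of the liver, was higher there (-12.40 ± 0.79) and Mat2a was not called (0.09 ± 0.11, edgeR adjusted p = 0.47).

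Genes of the vault particle were higher in liver, where the wild type also had more Vaultrc5. Mvp, the shell protein, stood at 41.2, 55.1 and 44.7 CPM in the knockout livers and 15.9, 7.77 and 11.0 CPM in the knockout brains (-2.02 ± 0.26, edgeR adjusted p = 0.00022). Parp4, a poly(ADP-ribose) polymerase, stood at 40.4, 42.7 and 36.9 CPM in liver and 13.4, 7.29 and 9.47 CPM in brain (-1.99 ± 0.22). Tep1, which binds vault RNA, stood at 37.0, 39.5 and 31.6 CPM in liver and 8.68, 5.04 and 6.93 CPM in brain (-2.39 ± 0.21). For all 3 genes brain replicate 1 was the highest and replicate 2 the lowest of the brains, and no brain reached a liver. The 3 calls held by library totals, with a median of -1.14, and the wild-type median was -2.10 against -2.02 in the knockout.

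Among 6 proteins known to bind or act on vault RNA, 5 were higher in liver, against 35.2% of all genes, with a median of -1.12. By library totals 3 were higher in liver and 1 in brain, with a median of -0.24. Sqstm1, the autophagy receptor p62, stood at 373, 365 and 340.0 CPM in liver and 148, 173 and 159.9 CPM in brain (-1.17 ± 0.11). Nsun2, an RNA methyltransferase, and Srsf2, a splicing factor, differed by -1.07 ± 0.09 and -1.02 ± 0.10 and were not called by library totals (-0.19 and -0.15). Eif2ak2, the kinase PKR, and Trim21 differed by -2.62 ± 0.18 and -2.94 ± 0.22. Ssb, the La protein that holds the ends of RNA polymerase III transcripts, was not called, at 48.8, 47.2 and 46.6 CPM in brain and 43.9, 48.6 and 49.3 CPM in liver (0.01 ± 0.09, edgeR adjusted p = 0.93), although by library totals it was called higher in brain (0.89).

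The 6 lists of machinery that every cell uses had medians of -1.63 to -0.34, and in each fewer members were called higher in liver by library totals. By that scaling 20.6% of all genes were called higher in liver. The median of all genes was then 1.09, above the median of each of these lists. All 14 subunits of the proteasome core were higher in liver, with a median of -1.32, and 10 were by library totals, with a median of -0.44. Psmb6 stood at 87.6, 81.4 and 84.3 CPM in liver and 29.3, 28.3 and 28.5 CPM in brain (-1.56 ± 0.09), and Psmb2, Psma6 and Psmb5 differed by -1.60, -1.39 and -1.06. Of 77 cytoplasmic ribosomal protein genes tested, 74 were higher in liver, with a median of -1.21, and by library totals 40 were higher in liver and 6 in brain, with a median of -0.33. Rps2 differed by -2.31 ± 0.14, Rplp1 by -1.48 ± 0.14, Rpl4 by -1.44 ± 0.12 and Rps15 by -0.77 ± 0.12, Rps15 being level by library totals (0.10). Rps15a was higher in brain (0.32 ± 0.10), a call lost without liver replicate 2 or 3 (edgeR adjusted p = 0.061 and 0.069), and Rps12 and Rps21 were not called. Many ribosomal protein genes have processed copies elsewhere, and the counts of Rps2 and Rps15a were fractional in all 12 libraries.

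Of 12 subunits of RNA polymerase II, 3 were higher in brain and 7 higher in liver, against 43.5% and 35.2% of all genes, with a median of -0.34. By library totals 7 were higher in brain and 1 in liver, against 62.1% and 20.6% of all genes. The median was then 0.54, against 1.09 for all genes. The sign of this median depends on the scaling, and under both scalings it lay below the median of all genes. The large subunits Polr2a and Polr2b differed by -0.33 ± 0.10 and -0.36 ± 0.09 and had the opposite call by library totals (0.55 and 0.52). Polr2g stood at 12.8, 12.5 and 11.1 CPM in brain and 5.81, 5.90 and 4.15 CPM in liver (1.19 ± 0.18). Polr2c (0.46) and Polr2d (0.80) were also higher in brain, and Polr2j (-0.83) and Polr2l (-1.16) in liver. Polr2a was not called without liver replicate 1 (edgeR adjusted p = 0.055) and Polr2d not without brain replicate 3 or liver replicate 2 or 3 (edgeR adjusted p = 0.053 to 0.057). Polr2e and Polr2h were not called.

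Organelles of oxidative metabolism leaned to the liver. Of 15 genes of peroxisome assembly, 14 were higher in liver (median -1.63), against 11 in liver and 1 in brain by library totals (median -0.75), led by level by Pex19 (-1.33 ± 0.12), Pex5, the import receptor (-2.12 ± 0.11), Pex16 (-2.83 ± 0.18) and Pex6 (-1.63 ± 0.09), and Pex10 was not called. All 24 nuclear genes of the respiratory chain were higher in liver with a median of -1.22, against 13 in liver and 1 in brain by library totals, with a median of -0.34. Atp5a1 stood at 773, 659 and 791 CPM in liver and 299, 281 and 288 CPM in brain (-1.36 ± 0.13). Cox6b1 and Atp5b differed by -1.29 ± 0.10 and -1.14 ± 0.13, and Cox4i1 by -0.61 ± 0.09, with the opposite call by library totals (0.27). Of 13 protein genes of the mitochondrial genome, 10 were higher in liver (median -1.47), against 7 in liver and 1 in brain by library totals (median -0.60), among them mt-Co1 at 36599, 26037 and 34995 CPM in liver and 7819, 9179.6 and 7266 CPM in brain (-2.01 ± 0.23). The differences of mt-Cytb, mt-Nd4 and mt-Nd1 were -1.79, -1.78 and -1.29, and mt-Co2, mt-Co3 and mt-Nd3 were not called.

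Annotated gene classes differed in how their calls fell. Of 14876 protein-coding genes tested, 41.6% were higher in brain and 38.8% higher in liver. Of 551 tested lincRNA genes, 54.6% were higher in brain and 27.6% in liver, and of 1597 genes of the class TEC (gene models that await experimental evidence) 58.2% and 12.8%. Antisense genes (50.5% of 396) and processed transcripts (51.9% of 285) were also called more often in brain than the 43.5% of all genes, whereas unprocessed pseudogenes gave 30.5% in brain and 59.3% in liver of 59 tested. By library totals 62.1% of all genes were higher in brain, with 61.1% of protein-coding genes, 63.3% of lincRNA, 64.6% of antisense genes, 68.1% of processed transcripts, 76.6% of TEC and 32.2% of unprocessed pseudogenes, so the share of lincRNA then lay near that of all genes. As a share of library totals, the TEC class took 1.10% ± 0.08 in brain and 0.250% ± 0.029 in liver (SD, n = 3). Mitochondrial genes took 2.99% ± 0.38 in brain and 5.80% ± 1.04 in liver. Whether reads from introns or from the other strand enter the TEC and antisense counts was not tested, since the strand setting of the counting is not given in the sources used here.

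**Figure D4:**
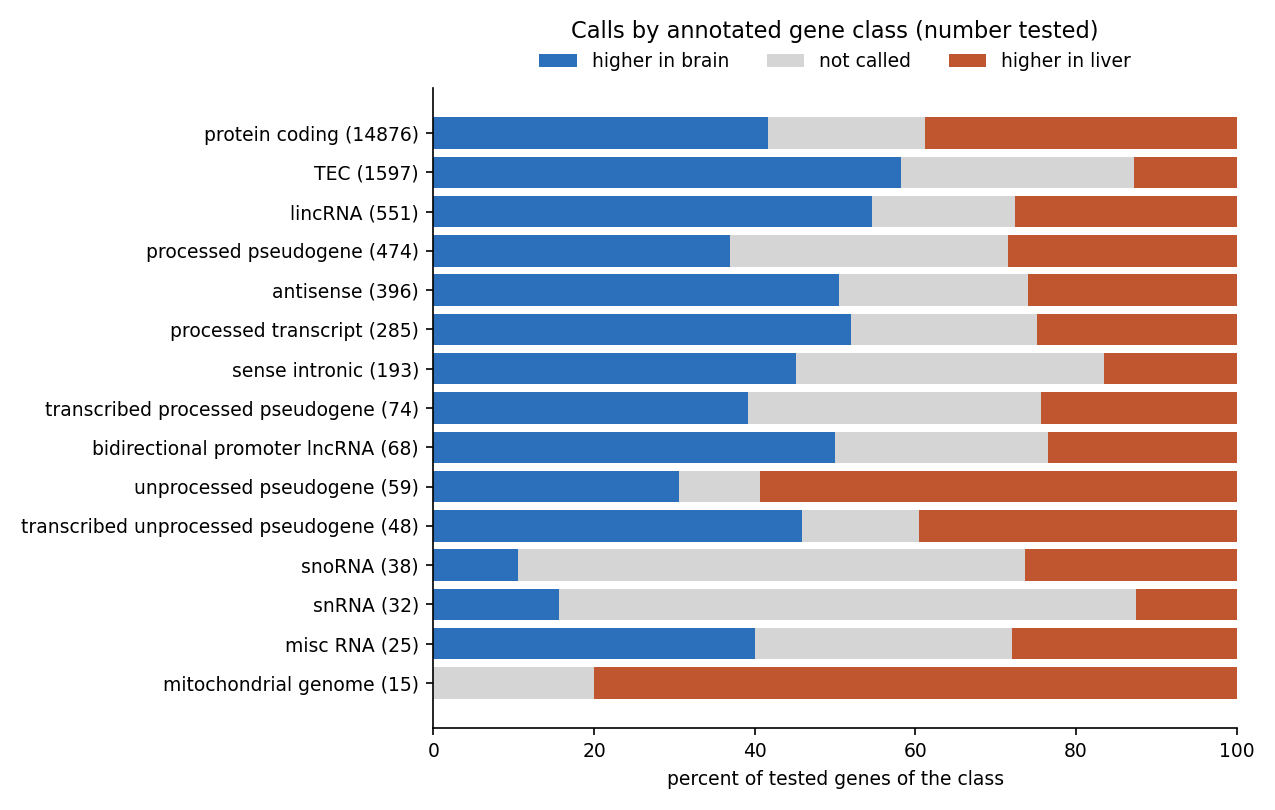
Percent of tested genes called higher in brain (blue), not called (grey) and higher in liver (orange) for each annotated gene class with at least 15 genes tested, the number tested in brackets. TEC and lincRNA have the widest blue bars, and the mitochondrial genome and unprocessed pseudogenes the widest orange bars.

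Named long noncoding RNAs were higher in brain for 13 of 21 tested members and higher in liver for 2, against 43.5% and 35.2% of all genes, with a median of 4.14. Without brain replicate 2 the counts were 14 and 2, and without liver replicate 3 they were 13 and 3. By library totals 17 were higher in brain and 1 in liver, with a median of 5.01. Meg3, the maternally expressed RNA of an imprinted cluster whose promoter is printed above, stood at 2615, 3449 and 3604 CPM in the brains and 9.42, 1.74 and 3.59 CPM in the livers (9.35 ± 0.72). Snhg11 stood at 1233, 1528 and 1474 CPM in brain and 15.3, 13.5 and 13.3 CPM in liver (6.65 ± 0.18). Neat1, the scaffold of nuclear paraspeckles, stood at 5857, 4115 and 2549 CPM in the livers and 72.2, 73.0 and 90.6 CPM in the brains (-5.73 ± 0.37). The abundant nuclear RNA Malat1 lies beside Neat1 on chromosome 19 and stood at 16426, 15740.0 and 15560.0 CPM in brain and 10362, 10160.0 and 9611 CPM in liver (0.66 ± 0.17). The call of Malat1 was lost when the replicate number was added as a block. Epb41l4aos was also higher in liver (-1.64 ± 0.31) but not by library totals (-0.77).

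Some abundant genes sat at nearly the same level. Of the 3996 genes not called, 996 had a 95% interval of the log2 difference within -0.5 to 0.5. The closest of those with at least 100 CPM in both tissues were Opa1, Srrm2, Atxn2l, Ptprd and Nucks1. Opa1, which fuses inner mitochondrial membranes, stood at 134, 145 and 126 CPM in brain and 140.3, 122 and 143 CPM in liver (0.00 ± 0.11). Srrm2, a spliceosome scaffold, stood at 684, 677 and 758 CPM in brain and 771, 589 and 758 CPM in liver (0.00 ± 0.15). Nucks1 stood at 183, 169.8 and 176 CPM in brain and 167, 186 and 178 CPM in liver (-0.01 ± 0.10). The libraries of these genes overlapped, yet by library totals all 5 were called higher in brain, at 0.87 to 0.88.

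The same contrast was set beside the wild type, which shares no library with the knockout contrast. Of 18850 genes tested in the wild type, 8275 (43.9%) were higher in brain and 6542 (34.7%) higher in liver. Among 18380 genes tested in both contrasts, 7608 were higher in brain in both, 6118 higher in liver in both and 0 had opposite calls, while 787 were called in the knockout only and 750 in the wild type only. Of the knockout calls among these genes, 94.6% had the same call in the wild type, and of the wild-type calls 94.8% in the knockout. The median absolute difference between the log2 values was 0.18, against a median absolute tissue difference of 1.54 in the knockout. Across genes, which are not independent replicates, the correlation of the log2 differences was 0.986. List medians were -13.86 and -14.54 for plasma proteins, -8.53 and -9.59 for liver transcription factors, 7.21 and 7.77 for synaptic vesicle genes and 3.84 and 3.81 for splicing regulators in knockout and wild type. In the first of these lists 23 of 41 members, and in the next 9 of 22, had a knockout mean under 3 counts in the lower tissue. Fitted values are uncertain there. The median per-gene difference between the genotypes, fitted over all 12 libraries, was -0.03 and 0.27 for these lists.

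The test of the difference itself, an interaction of genotype and tissue over all 12 libraries, called 0 of 20141 genes (0.0%, edgeR, smallest adjusted p = 1.00), with 489 genes at an unadjusted p under 0.05, which is 2.43%. That share is smaller than the 0.05 that p-values without any difference would give. Most same-numbered libraries of the genotypes deviated together (correlations below), which this test does not model. DESeq2 called 1 gene, Gm20687. A p that misses the threshold does not show equality, and the 95% interval of the difference lay within -1 to 1 on the log2 scale for 9422 genes (46.8%). The 3 smallest unadjusted p-values belonged to Gm20687, Gm49356 and Adamts3. Gm20687 stood at 8.83, 3.21 and 5.94 CPM in the knockout brains and 1.31, 1.63 and 1.18 CPM in the knockout livers (2.12 ± 0.40), while no wild-type liver had a count. Gm49356 differed by -1.75 ± 0.42 in the knockout, and 2 of the 3 wild-type brains had no count, so no fold is given for either gene in the wild type. The counts of both genes were fractional in most libraries. Adamts3, a metalloprotease that processes procollagen, stood at 20.5, 17.7 and 17.4 CPM in the knockout brains and 0.419, 0.394 and 0.336 CPM in the livers (5.57 ± 0.19), against 4.28 in the wild type. With the replicate number within tissue as a block, 2 genes were called, Moxd1 (-7.30, edgeR adjusted p = 4.9e-05) and Cela2a (15.86, edgeR adjusted p = 0.0039). Moxd1 stood at 0.262, 369.9 and 0.224 CPM in the knockout livers and Cela2a, a pancreatic elastase, at 0, 0 and 1029 CPM in the knockout brains, so each rests on 1 library, liver replicate 2 and brain replicate 3.

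**Figure D5:**
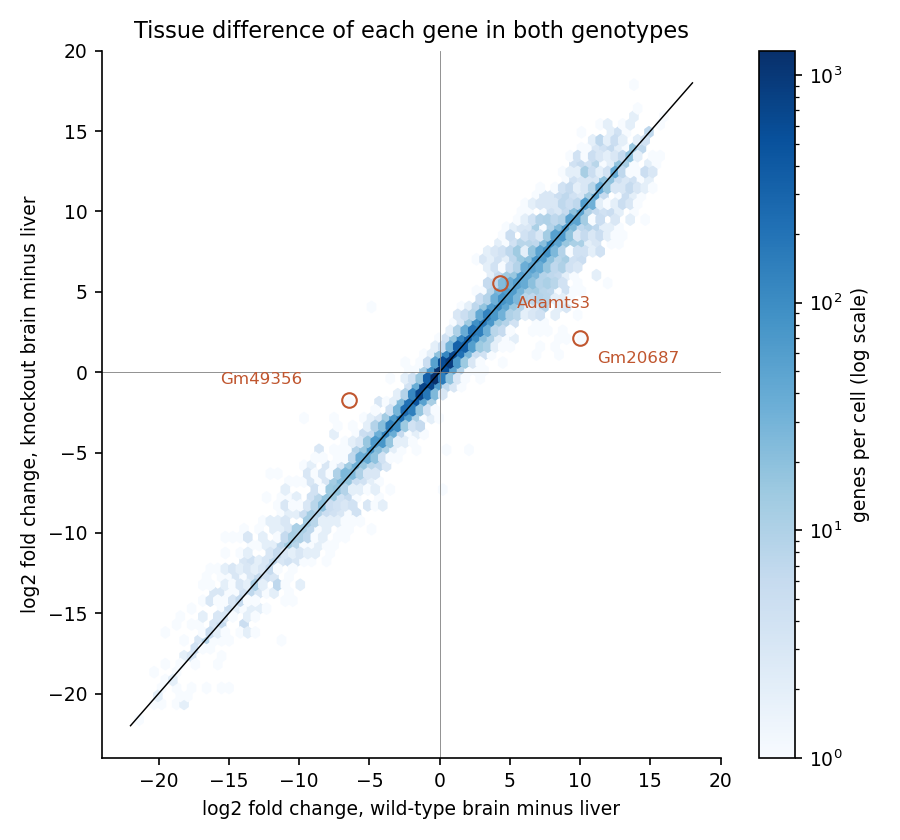
Log2 tissue difference (brain minus liver) of each gene tested in both contrasts, wild type on the horizontal and knockout on the vertical axis; the colour of a cell gives the number of genes on a log scale, the line marks equal values, and circles mark the 3 genes with the smallest unadjusted interaction p. The 18380 genes follow the line, and no gene called in both genotypes lies in the quadrants of opposite sign.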

How the data were processed

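Libraries were grouped by the genotype and tissue in their labels. Per the labels' protocols, TRIzol RNA was treated with DNase I, depleted of ribosomal RNA in a stranded total RNA kit and sequenced single-end. The authors deposited 1 table of expected counts for 55450 genes, of which all matched GENCODE M21 by identifier. Per the submitters' processing notes, cutadapt, STAR and mm10 were used. The counting tool, its strand setting and its treatment of reads shared between genes are not given in the sources used here. Between 5.05% and 5.56% of the values in a knockout library were not whole, and all were rounded.

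Genes were tested with edgeR 4.0.16 (R 4.3.3, TMM scaling, robust quasi-likelihood F-test, at least 10 counts in enough libraries and 15 in all), on the 6 libraries of a genotype, with Benjamini-Hochberg adjustment over all genes tested and a threshold of 0.05. The difference between genotypes was the interaction term over 12 libraries. The scripts were tested on simulated data. DESeq2 1.42.0, other scalings and filters, a replicate block and leaving out each library were alternatives. Per-length values are RPKM over merged exons. A fold for a gene without counts in a tissue is given as a bound at 3 counts per library. Where a ratio is printed on a total of 5 or fewer counts, it has an exact 95% Poisson interval. Intervals and floors cover counting error only.

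The gene lists, pairs and named genes were chosen with earlier results of these data known. The text names Vaultrc5, the vault protein genes, Alb and Snap25; the 3 smallest p-values a direction whose lower group held a mean of at least 3 counts; the 5 most abundant protein-coding genes of a tissue; the 4 members of a list highest per exon length and every member called against its list; the 8 most divergent pairs and every pair against its order; the 5 closest abundant genes; and the 3 smallest interaction p-values. Uncalled list members, small RNAs, the genes of single libraries and Moxd1 and Cela2a were named after their values were seen. Python 3.11.15 and matplotlib 3.10.9 made the tables and figures. Some genes that this rule selects are not reported here.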

Additional observations from a re-analysis of the deposited data

How the results depend on the processing

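The counts of genes higher in brain stayed within 1.5 times of the reported value under every alternative, at 5957 to 11668 in the knockout and 6088 to 11635 in the wild type. The counts higher in liver fell to 3871 in the knockout and 3998 in the wild type by library totals, and to 4047 and 4056 when the test was made against a log2 difference of 1, which asks for more than a difference from 0. Leaving out 1 library at a time gave 7986 to 8174 and 6266 to 6614 calls in the knockout and 7996 to 8338 and 6154 to 6721 in the wild type. For the interaction, 0 genes were called without any 1 library, DESeq2 called 1 (541 at an unadjusted p under 0.05) and the replicate block called 2 (907 at an unadjusted p under 0.05). With a pseudocount of 0.1 CPM in place of 1, Vaultrc5 in the knockout minus the wild type was -1.14 instead of -0.17 in brain and -4.45 instead of -1.63 in liver, and the exact permutation p of 0.1 is the smallest that 3 against 3 can give.

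Adding a replicate block gave 7948 calls higher in brain and 6449 higher in liver in the knockout, and 8096 and 6400 in the wild type. Same-numbered knockout brain and liver libraries correlated at 0.0159, 0.0198 and 0.0257 in their deviations from the group means, so the numbers were not treated as pairs, although every sample correlated best with its own number. Between genotypes the same numbers correlated at 0.643, 0.654 and -0.0105 in brain and at 0.266, 0.278 and 0.35 in liver. The main interaction test leaves this out, and its common dispersion was 0.0555, against 0.0210 with the block. Under the block Ttr was called higher in liver (-8.81) and Malat1 was not called (0.66, edgeR adjusted p = 0.053).

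Of 176 named genes followed under 15 settings, 12 changed sign by library totals, a scaling that moves all genes toward brain: Atxn2l (0.87), Nucks1 (0.87), Pex10 (0.76), Stx4a (0.72), Polr2a (0.55), Polr2b (0.52), Cox4i1 (0.27), Rpph1 (0.23), Stxbp2 (0.14), Rps15 (0.10), Polr2j (0.051) and Mbnl1 (0.0058). Under the other 14 settings no named gene with a call in either fit changed sign. Of 24 list medians, that of RNA polymerase II was 0.54 by library totals instead of -0.34, and that of the 5 brain P450 genes was 1.70 without liver replicate 1, -0.25 without liver replicate 2 and -0.12 without liver replicate 3 instead of 0.24. For these lists the cause was not tested. Depth limits genes at 0 in a tissue, for which only a bound is known, and 3 libraries a group limit small differences.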

Other observations

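Among small RNA genes tested in the knockout contrast, 24 of 38 snoRNA, 23 of 32 snRNA and 8 of 25 misc_RNA genes were not called, against 3996 of 18785 genes in all. By library totals 31.6% of snoRNA, 56.25% of snRNA and 52% of misc_RNA genes were higher in brain, against 62.1% of all genes. The shares higher in liver were then 10.5%, 3.1% and 20%, against 20.6%. Of the snRNA genes, 15 had the same counts as another in every knockout library, 13 of them among those not called, so the genes are not independent. A few with known roles are described here, chosen after their values were seen. The Y RNA genes Rny1 and Rny3, which like vault RNAs are transcribed by RNA polymerase III, stood at 43.5, 32.3 and 18.4 CPM and at 26.4, 22.4 and 7.43 CPM in the brains. In the livers Rny1 stood at 0.262, 0.169 and 0.224 CPM and Rny3 at 0.366, 0.225 and 0.449 CPM, so both were higher in brain (7.12 ± 0.45 and 5.73 ± 0.60, edgeR). The signal recognition particle RNA gene Rn7s1 stood at 19627, 19191 and 26671 CPM in the brains and 50198, 56880.0 and 45239 CPM in the livers (-1.22 ± 0.24), and was not called by library totals. Rn7sk, whose RNA holds the elongation factor P-TEFb inactive, stood at 9561, 8286 and 9213 CPM in the brains and 7944, 7052 and 8059.6 CPM in the livers. Its libraries did not overlap, but it was not called (0.23 ± 0.17, edgeR adjusted p = 0.25), and it was called higher in brain by library totals (1.11). Terc, the RNA of telomerase, was higher in liver (-3.33), at 0.838, 1.07 and 1.01 CPM against 0.049, 0.174 and 0.0453 CPM.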
